A study of Mus musculus with 8 samples.

Results

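Interferon-stimulated genes were followed in progenitors of the lymphoid and innate lymphoid lineages of mouse fetal liver. The 47 genes were taken by symbol, 40 of them as genes of the type I interferon response and 7 as interferon gamma-linked GTPases (Gbp2, Gbp3, Gbp4, Gbp6, Gbp7, Igtp and Irgm1). They matched 48 of the 34745 rows of the expression table, because 2 rows carry the symbol Gbp6, and 46 rows had enough counts to be tested. Ifit3 and Oas3 did not. Bulk RNA sequencing was done on 8 libraries of sorted cells: 2 of ILC1/3P, 3 of ILCP (innate lymphoid cell progenitors) and 3 of CLP (common lymphoid progenitors). All libraries are labelled B6 WT, untreated, with a single batch date, and every gate took live Lin- CD45+ CD127+ CD25- cells. CLP were in addition Flt3+. ILC1/3P and ILCP were both Flt3- α4β7+, and were told apart as CD94+ PD-1- (ILC1/3P) or PD-1+ CD94- (ILCP). An age of 6 to 8 weeks stands in the labels beside the fetal tissue, and whose age it is was not given. No label says whether the libraries of a group came from separate animals, and a p-value therefore covers the spread among the sequenced samples alone, part or all of which may be technical.

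Total counts ran from 4991939 to 8082476 per library, and 3 counts in a library corresponded to 0.340 to 0.709 CPM (counts scaled to library size). The library size was adjusted by TMM scaling, which sets libraries to a common level over most genes. The TMM factors were 0.671 and 0.753 in ILC1/3P, 1.05 to 1.17 in ILCP and 1.09 to 1.23 in CLP, so the scaling raised ILC1/3P values. Summed ILC1/3P and CLP markers were highest in the populations of their labels, and summed ILCP markers were not. Each list holds a gene of a sorting gate (Klrd1 for CD94, Flt3 and Pdcd1 for PD-1), so part of this was set by the gates. The 7 ILC1/3P markers summed to 2933 and 4019 CPM in ILC1/3P, 254 to 414 CPM in ILCP and 50.8 to 78.4 CPM in CLP. The 6 CLP markers summed to 241 and 269.7 CPM, 604 to 612 CPM and 1280 to 1480 CPM in the same order. The 7 ILCP markers summed to 10338 and 14536 CPM in ILC1/3P, 5875 to 6217 CPM in ILCP and 175 to 309.99 CPM in CLP, although 4 of them were called lower in ILC1/3P than in ILCP. In bulk RNA, fewer cells of a type and less RNA per cell cannot be told apart.

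Interferons are cytokines released on infection or immune activation. Type I interferons act through the receptor chains Ifnar1 and Ifnar2 on a complex that includes Stat2 and Irf9, which binds interferon-stimulated response elements (ISRE) before antiviral genes. Interferon gamma acts through Ifngr1 and Ifngr2 on genes with gamma-activated sites (GAS), and together with Irf1 it raises guanylate-binding proteins and immunity-related GTPases, which attack vacuoles that hold intracellular pathogens. Many stimulated genes answer both kinds of interferon, and some are known to be expressed by stem and progenitor cells without infection.

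Promoters were read from RefSeq (GRCm38.p6) for 35 of the 47 genes, over a window from 250 bases before to 50 bases after each annotated start. The ISRE core, GAAA and GAAA with any 2 bases between them, on either strand, occurred in 18 of the 35 genes, 13 of 30 type I genes and 5 of 5 GTPases, against 3.99% of all 27025 genes in the same table. The GAS core, TTCNNNGAA, which reads the same on both strands, occurred in 11 of the 35, 9 of 30 type I genes and 2 of 5 GTPases, against 9.55% of all genes. Igtp, Gbp2 and Gbp7 are shown because they stood higher in ILC1/3P than in CLP, Oas1a and Ifit1 because their counts were highest in CLP, and Bst2 because it was lowest in ILCP. Each line gives the 150 bases before the start, with matches to either core in capitals; where matches overlap, as in Oas1a and Bst2, they form 1 run.
Igtp: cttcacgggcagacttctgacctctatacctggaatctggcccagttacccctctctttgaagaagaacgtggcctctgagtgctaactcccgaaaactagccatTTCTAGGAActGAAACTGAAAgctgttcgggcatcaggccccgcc
Gbp2: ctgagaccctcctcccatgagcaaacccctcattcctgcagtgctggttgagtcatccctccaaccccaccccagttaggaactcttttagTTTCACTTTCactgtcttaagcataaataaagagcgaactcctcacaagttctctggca
Gbp7: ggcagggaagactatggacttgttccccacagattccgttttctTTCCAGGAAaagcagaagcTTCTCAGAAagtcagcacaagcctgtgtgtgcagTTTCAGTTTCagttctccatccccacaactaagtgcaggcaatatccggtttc
Oas1a: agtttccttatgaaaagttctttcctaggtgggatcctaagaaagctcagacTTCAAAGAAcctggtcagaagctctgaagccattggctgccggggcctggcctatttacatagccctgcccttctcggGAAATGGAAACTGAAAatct
Ifit1: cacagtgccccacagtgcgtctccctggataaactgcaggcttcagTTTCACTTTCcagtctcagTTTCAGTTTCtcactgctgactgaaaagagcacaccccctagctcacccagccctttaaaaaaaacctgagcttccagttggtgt
Bst2: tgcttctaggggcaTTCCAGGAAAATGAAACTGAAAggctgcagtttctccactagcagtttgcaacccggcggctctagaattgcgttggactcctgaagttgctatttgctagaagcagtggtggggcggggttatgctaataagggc
These stretches lie at chr11:58199406-58199555, plus strand (Igtp), chr3:142620513-142620662, plus strand (Gbp2), chr3:142530186-142530335, plus strand (Gbp7), chr5:120907526-120907675, minus strand (Oas1a), chr19:34640739-34640888, plus strand (Ifit1) and chr8:71537473-71537622, minus strand (Bst2). Igtp, Gbp7, Oas1a and Bst2 held both cores, and Gbp2 and Ifit1 the ISRE core without the GAS core. All of the genes shown, which were picked, held the ISRE core, as did 13 of the 30 type I genes. Irf7, Irf9, Trim25, Ube2l6, Xaf1 and Ifitm1, which were also called, had no match to either core. Whether a core goes with a population was not tested. A match describes the sequence and says nothing of binding.

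Relative to CLP, calls among the type I response genes went in both directions, whereas the called GTPases were all higher; relative to ILCP, nearly all calls in ILC1/3P were higher in both classes. No test of a difference between the classes was made. Relative to CLP, ILC1/3P had 14 genes called higher and 8 called lower of 46 tested rows, and ILCP had 5 called higher and 11 called lower. Relative to ILCP, ILC1/3P had 15 called higher and 1 called lower. A call is an adjusted p under 0.05 in edgeR's quasi-likelihood test over all 13436 genes. Over all those genes, 23.5% were called in ILC1/3P against CLP (11.8% higher and 11.7% lower). In ILCP against CLP 6.79% were called (3.91% higher and 2.87% lower), and in ILC1/3P against ILCP 16.3% (8.06% higher and 8.25% lower). Both comparisons with CLP use the same 3 CLP libraries.

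By class, the 38 tested type I rows gave 10 higher and 8 lower in ILC1/3P against CLP, 2 higher and 11 lower in ILCP against CLP, and 12 higher and 1 lower in ILC1/3P against ILCP. Of the 8 GTPase rows, 4, 3 and 3 were called higher in the same comparisons, and the others were not called. The median log2 fold change of the type I rows was -0.30 in ILC1/3P against CLP, -1.20 in ILCP against CLP and 0.50 in ILC1/3P against ILCP, beside medians of -0.25, 0.01 and -0.23 over all genes. For the GTPase rows, in which Gbp6 enters as 2 rows that could not be separated, it was 2.42, 1.27 and 1.63. Relative to the median of all genes, the type I rows stood at -0.05, -1.20 and 0.73 and the GTPase rows at 2.67, 1.27 and 1.86 on the log2 scale. When libraries were scaled by their size alone, the median of all genes moved to -0.93 in ILC1/3P against CLP and -0.86 in ILC1/3P against ILCP. ILC1/3P against CLP then gave 7 of the genes higher and 11 lower in place of 14 and 8. Single libraries mattered to some counts. In ILCP against CLP, 3 genes were higher without CLP replicate 2 or 3 or without any 1 ILCP library, and 5 were lower without CLP replicate 3 and 6 without ILCP replicate 3. Leaving out a library moved the ILC1/3P against CLP count of lower genes to 4 without ILC1/3P replicate 2 or 5 without CLP replicate 3. In ILC1/3P against ILCP, 2 genes were lower without ILCP replicate 1.

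The groups were fully separated in part of the rows. In ILC1/3P against CLP, 14 of 38 tested type I rows had every ILC1/3P library above every CLP library and 12 had every one below, and 6 of 8 GTPase rows had them above; over all genes the shares were 23.3% above and 29.1% below. In ILCP against CLP, 3 type I rows lay wholly above and 20 wholly below, and 4 GTPase rows above and 2 below, against 14.1% and 14.0% of all genes. In ILC1/3P against ILCP, 16 type I rows lay above and 3 below, and 6 GTPase rows above, against 20.2% and 24.7% of all genes. Both Gbp6 rows, which could not be separated, were among the GTPase rows above in ILC1/3P against CLP.

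**Figure D1:**
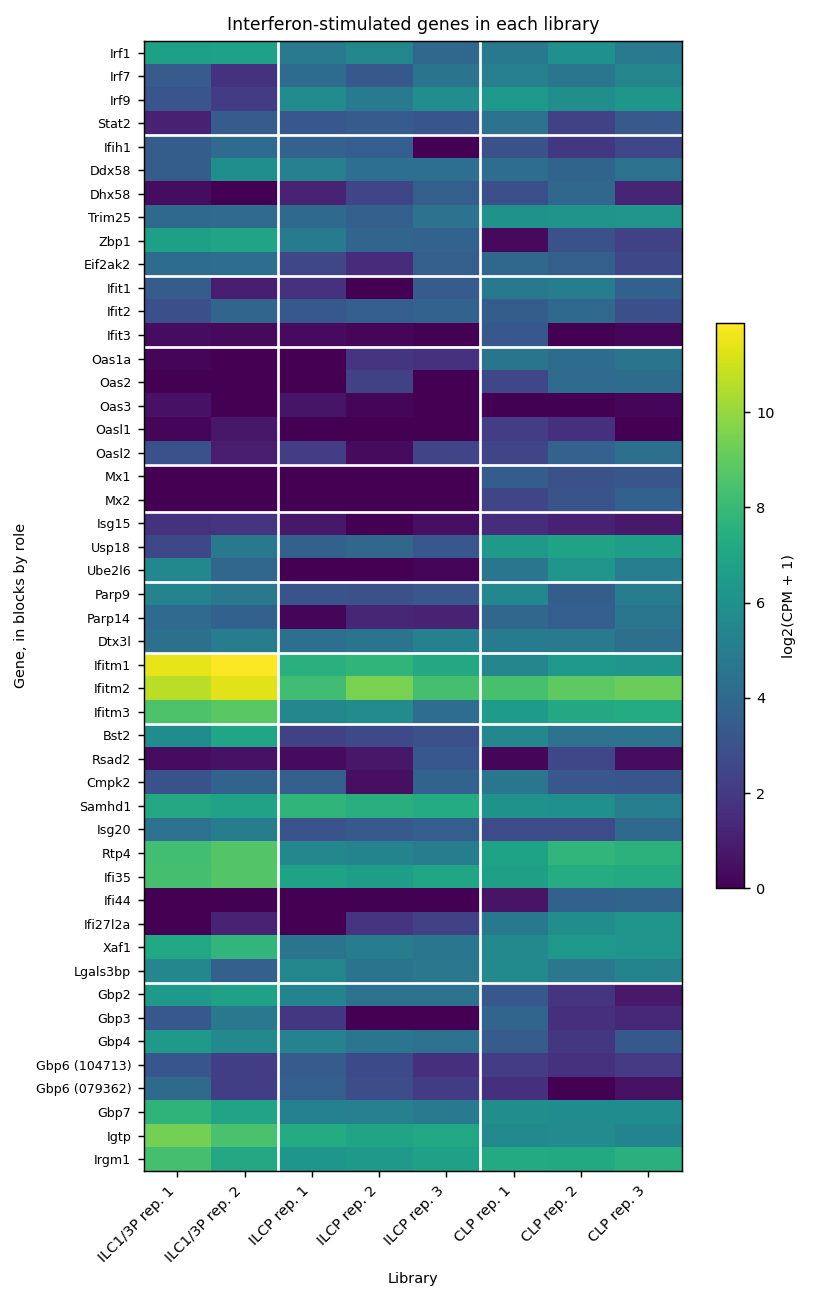
Expression of the 48 rows (y axis, in blocks by role) in each of the 8 libraries (x axis, ILC1/3P, ILCP and CLP from left to right), as log2(CPM + 1) by colour; the Gbp6 rows carry the last 6 digits of their identifiers. The IFITM rows are brightest in ILC1/3P, and Mx1, Mx2 and Ifi44 are dark in both ILC1/3P and ILCP.

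Summed over the 8 GTPase rows, the libraries held 1401 and 813 CPM in ILC1/3P, 366, 294 and 323 CPM in ILCP and 296, 260.5 and 292 CPM in CLP. Both ILC1/3P libraries lay above every other, and ILCP and CLP overlapped. The 37 type I rows without the IFITM genes summed to 1478 and 1823 CPM in ILC1/3P, 719.7, 602 and 662 CPM in ILCP and 1052, 1271 and 1190 CPM in CLP, so ILCP was lowest with no overlap. The order of ILC1/3P and CLP in this sum depended on scaling: as a share of all counts it was 0.111 and 0.122% in ILC1/3P, 0.0837, 0.0631 and 0.0731% in ILCP and 0.130, 0.138 and 0.129% in CLP, which puts ILC1/3P below CLP instead of above it. The ratio of the GTPase sum to this type I sum does not depend on the scaling. It was 0.948 and 0.446 in ILC1/3P, 0.509, 0.487 and 0.488 in ILCP and 0.281, 0.205 and 0.245 in CLP, with all ILC1/3P and ILCP libraries above all CLP libraries and the ILC1/3P libraries on either side of ILCP.

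The 26 genes that were called in at least 1 comparison fell into few patterns. Ifitm1 and Igtp were higher in ILCP than in CLP and higher again in ILC1/3P. Gbp2, Gbp4 and Samhd1 were higher in both than in CLP. Bst2, Ifitm3, Rtp4 and Xaf1 were lower in ILCP than in CLP but higher in ILC1/3P than in either, and Parp14 and Ube2l6 were lower in ILCP than in both other populations. Ifi27l2a, Mx1, Mx2, Trim25 and Usp18 were lower in both ILC1/3P and ILCP than in CLP. Irf9 was lower in ILC1/3P than in both. Gbp7, Ifi35, Ifitm2, Irf1 and Zbp1 were higher in ILC1/3P than in both, Irf7 and Oas1a lower in ILC1/3P than in CLP, and Irgm1 and Parp9 higher in ILC1/3P than in ILCP.

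**Figure D2:**
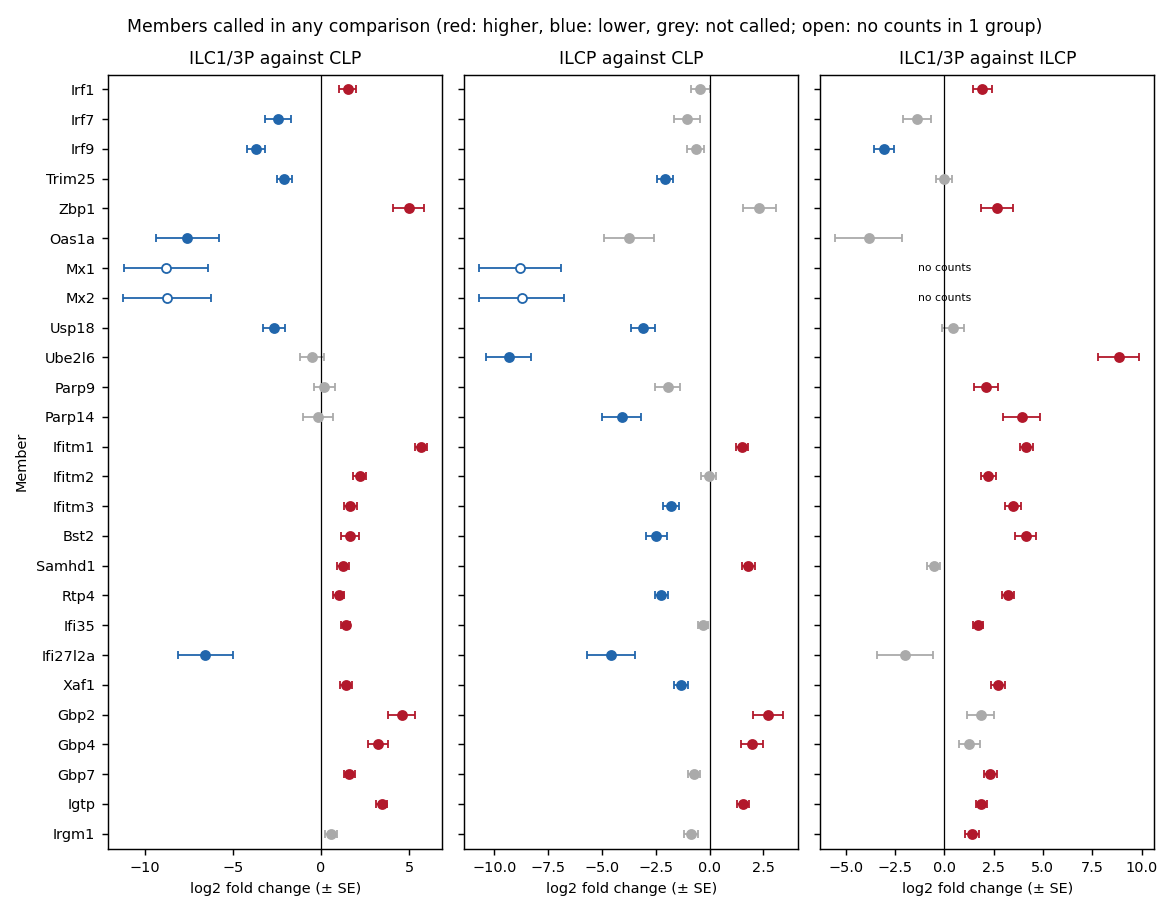
Log2 fold change ± SE (x axis) of the 26 genes called in at least 1 comparison (y axis), for ILC1/3P against CLP, ILCP against CLP and ILC1/3P against ILCP; red points were called higher, blue lower and grey not called, and open points are fitted values of genes with no counts in 1 of the groups, which are not bounds. IFITM genes and GTPases lie to the right in the first and last panels, and Bst2, Rtp4, Xaf1, Ifitm3, Ube2l6 and Parp14 lie to the left in the middle panel.

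Interferon gamma was the ligand with appreciable counts. Of 21 interferon genes looked up, 19 had no counts in any library, among them Ifnb1, and Ifnl3 had 1 count, in ILC1/3P. Ifng had 952 and 1623 CPM in ILC1/3P, 12.2, 26.0 and 27.3 CPM in ILCP and no counts in any CLP library. Ifng was at least 8594-fold higher in ILC1/3P than in CLP and at least 153-fold higher in ILCP than in CLP, against a floor of 3 counts over the CLP libraries, and its log2 fold change in ILC1/3P against ILCP was 5.88 ± 0.43 (SE; edgeR adjusted p = 0.000109). Ifng is also a marker of the ILC1/3P label here, and its exons overlap those of Gm49751, so its counts carry that uncertainty.

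The receptor chains changed unequally. Ifngr2, the chain that brings Jak2 to the interferon gamma receptor, had 5.76 and 1.42 CPM in ILC1/3P, 50.9, 38.3 and 59.1 CPM in ILCP and 135, 120.5 and 126 CPM in CLP. It was lowest in ILC1/3P without overlap, with log2 fold changes of -5.09 ± 0.56 against CLP (edgeR adjusted p = 0.0001) and -3.73 ± 0.53 against ILCP (edgeR adjusted p = 0.00118). The ligand-binding chain Ifngr1 had 682 and 464 CPM in ILC1/3P, 500.4, 378 and 460.2 CPM in ILCP and 329, 383 and 297 CPM in CLP, and its call in ILC1/3P against CLP (log2 fold change 0.77 ± 0.25, edgeR adjusted p = 0.046) was lost without several single libraries (edgeR adjusted p up to 0.317 without ILC1/3P replicate 1) and on scaling by library size alone (0.792). Jak2, the kinase bound by Ifngr2, had 87.3 and 93.8 CPM in ILC1/3P, 63.1, 43.3 and 63.2 CPM in ILCP and 17.3, 17.5 and 12.6 CPM in CLP and was higher in both than in CLP, by 2.52 ± 0.35 in ILC1/3P (edgeR adjusted p = 0.000407) and 1.84 ± 0.32 in ILCP (edgeR adjusted p = 0.00453) on the log2 scale.

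Of the type I receptor, Ifnar2 had 98.2 and 45.6 CPM in ILC1/3P, 57.3, 49.3 and 36.7 CPM in ILCP and 165, 141 and 159 CPM in CLP, highest in CLP. Its log2 fold change was -1.70 ± 0.32 in ILCP against CLP (edgeR adjusted p = 0.00735) and -1.11 ± 0.37 in ILC1/3P against CLP (edgeR adjusted p = 0.0482), a call lost without any CLP or ILCP library or ILC1/3P replicate 2 (adjusted p 0.056 to 0.268). Ifnar1 had 29.4 and 2.6 CPM in ILC1/3P, 21.8, 15.1 and 18.2 CPM in ILCP and 88.6, 52.2 and 42.2 CPM in CLP, lower than in every CLP library but not called (edgeR adjusted p = 0.0979 for ILC1/3P and 0.161 for ILCP). Il10rb, a chain of the type III receptor, was lower in ILC1/3P than in CLP (log2 fold change -2.13 ± 0.49, edgeR adjusted p = 0.00889; 0.0526 without ILC1/3P replicate 2), and its partner Ifnlr1 had no counts. Exons of Ifnar2 and Il10rb overlap a read-through gene that spans both.

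Among the transcription factors, Irf9 showed the clearest difference. Irf9, a DNA-binding part of the complex formed with Stat2, had 7.73 and 3.31 CPM in ILC1/3P, 52.0, 30.1 and 55.9 CPM in ILCP and 80.5, 59.8 and 76.3 CPM in CLP. Every ILC1/3P library lay far below every ILCP and CLP library. The log2 fold change was -3.69 ± 0.52 in ILC1/3P against CLP (edgeR adjusted p = 0.00043) and -3.04 ± 0.50 against ILCP (edgeR adjusted p = 0.0026), both kept under every alternative tried. ILCP lay below CLP without overlap but was not called (log2 fold change -0.65 ± 0.39, edgeR adjusted p = 0.413). Exons of Irf9 overlap those of Rnf31 on the same strand.

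Irf7, which amplifies the type I response, had 9.71 and 2.36 CPM in ILC1/3P, 16.8, 8.71 and 22.4 CPM in ILCP and 35.3, 23.9 and 41.1 CPM in CLP. CLP libraries were highest and ILC1/3P libraries overlapped ILCP. Irf7 was called lower in ILC1/3P against CLP (log2 fold change -2.45 ± 0.73, edgeR adjusted p = 0.031), but not without CLP replicate 1, CLP replicate 3 or ILC1/3P replicate 2 (adjusted p 0.0752 to 0.142), and not in ILCP against CLP (-1.07, edgeR adjusted p = 0.372). Stat2, the partner of Irf9, had 1.15 and 9.93 CPM in ILC1/3P, 8.25, 9.53 and 8.02 CPM in ILCP and 20.2, 3.86 and 9.04 CPM in CLP, and its libraries overlapped in all comparisons (edgeR adjusted p = 0.528, 0.918 and 0.733 for ILC1/3P against CLP, ILCP against CLP and ILC1/3P against ILCP).

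Irf1, a factor of the interferon gamma response that was counted here among the 40 type I genes, went the other way. It had 108 and 110.1 CPM in ILC1/3P, 28.9, 42.0 and 14.5 CPM in ILCP and 27.0, 60.5 and 27.6 CPM in CLP, and per length it was the most abundant of the 4 factors in ILC1/3P, though below Irf9 in ILCP and CLP, at 13.4 ± 0.867 FPKM in ILC1/3P, 5.41 ± 2.45 FPKM in ILCP and 7.46 ± 3.45 FPKM in CLP (the authors' values, SD). The ILC1/3P libraries lay above all others, by 1.93 ± 0.49 over ILCP (edgeR adjusted p = 0.0197) and 1.51 ± 0.49 over CLP (edgeR adjusted p = 0.0433) on the log2 scale. The call against CLP was lost without CLP replicate 1 or 3, ILCP replicate 1 or either ILC1/3P replicate (adjusted p 0.0606 to 0.133), and the call against ILCP without ILC1/3P replicate 2, ILCP replicate 1 or ILCP replicate 3 (0.0631 to 0.0698). Both were lost when libraries were scaled by size alone (0.22 and 0.087).

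Among the nucleic acid sensors, Zbp1 and Trim25 moved in opposite directions. Zbp1, a sensor of Z-form nucleic acids that triggers cell death, had 107 and 119.8 CPM in ILC1/3P, 27.3, 13.7 and 12.2 CPM in ILCP and 0.227, 6.81 and 4.00 CPM in CLP. The groups did not overlap, and ILC1/3P was highest. Zbp1 was higher in ILC1/3P than in CLP by 4.98 ± 0.87 on the log2 scale (edgeR adjusted p = 0.00177) and than in ILCP by 2.68 ± 0.79 (edgeR adjusted p = 0.0398), and the call against ILCP was lost without CLP replicate 3 or any single ILCP or ILC1/3P library (adjusted p 0.0616 to 0.134) or on scaling by library size alone (0.116). Trim25, a ubiquitin ligase that activates the RNA sensor encoded by Ddx58, had 16.0 and 16.8 CPM in ILC1/3P, 15.8, 11.3 and 22 CPM in ILCP and 64.7, 70.3 and 72.9 CPM in CLP. All CLP libraries lay above all others, with log2 fold changes of -2.08 ± 0.44 in ILC1/3P (edgeR adjusted p = 0.00504) and -2.08 ± 0.37 in ILCP (edgeR adjusted p = 0.00499), kept under every alternative. The sensors Ifih1 and Ddx58, their relative Dhx58 and the RNA-dependent kinase Eif2ak2 were not called in any comparison, with means of 0.164 to 35.0 CPM; Dhx58 had 2 counts in ILC1/3P and was a ratio of 34.9, 95% counting interval 9.47 to 291, lower there than in CLP (edgeR adjusted p = 0.0601).

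In the ISG15 system, which attaches the ubiquitin-like protein Isg15 to other proteins, Ube2l6 was nearly without counts in ILCP. Ube2l6, the conjugating enzyme, had 46.2 and 13.9 CPM in ILC1/3P, 0, 0 and 0.141 CPM in ILCP and 24.1, 71.6 and 32.6 CPM in CLP. The ILCP libraries held 1 count in all, while ILC1/3P and CLP overlapped. The pooled CPM in ILCP was lower than in CLP by a ratio of 836, 95% counting interval 149.7 to 33076 (edgeR adjusted p = 0.000146), and that in ILC1/3P was higher than in ILCP by a ratio of 705, 95% counting interval 126 to 27918 (edgeR adjusted p = 0.000453); intervals cover counting error only. Ube2l6 did not pass the test in ILC1/3P against CLP (edgeR adjusted p = 0.65).

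Usp18, the protease that removes Isg15 and dampens the type I receptor, had 4.93 and 26.5 CPM in ILC1/3P, 11.8, 14.2 and 8.31 CPM in ILCP and 81.4, 112 and 100.1 CPM in CLP. It was high in CLP alone, and its log2 fold change was -2.65 ± 0.63 in ILC1/3P (edgeR adjusted p = 0.01) and -3.09 ± 0.54 in ILCP (edgeR adjusted p = 0.0044), kept under every alternative. Per length Usp18 averaged 3.11 ± 2.88 FPKM in ILC1/3P, 3.66 ± 0.879 FPKM in ILCP and 32.0 ± 3.22 FPKM in CLP. Isg15 itself was low, with 2.3 and 2.6 CPM in ILC1/3P, 0.711, 0 and 0.422 CPM in ILCP and 1.93, 1.10 and 0.741 CPM in CLP, and was not called.

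Parp14, a mono-ADP-ribosyltransferase, had 16.8 and 12.1 CPM in ILC1/3P, 0.142, 1.38 and 1.27 CPM in ILCP and 13.9, 10.9 and 23.9 CPM in CLP. It was lowest in ILCP without overlap, with log2 fold changes of -4.10 ± 0.90 in ILCP against CLP (edgeR adjusted p = 0.0168; 0.0853 without CLP replicate 3 and 0.0555 without ILCP replicate 3) and 3.93 ± 0.93 in ILC1/3P against ILCP (edgeR adjusted p = 0.0148). This last call was lost when only ILC1/3P and ILCP libraries were fitted (0.0618) or with limma on FPKM (0.104). Parp9, a relative that pairs with Dtx3l, was higher in ILC1/3P than in ILCP (edgeR adjusted p = 0.0337), a call lost without CLP replicate 3 or any single ILCP or ILC1/3P library (0.0517 to 0.135) or on scaling by library size alone (0.123). Dtx3l, the ubiquitin ligase that binds Parp9, had 19.9 and 31.2 CPM in ILC1/3P, 19.2, 22.4 and 36.2 CPM in ILCP and 27.7, 27.6 and 19.6 CPM in CLP with every group overlapping. Parp9 and Dtx3l overlap each other on opposite strands, and Parp14 and Usp18 each overlap another annotated gene.

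Of the antiviral effectors, Mx1, Mx2, Oas1a and Ifi27l2a were called lower in ILC1/3P than in CLP, and all but Oas1a also in ILCP. Mx1, a GTPase that traps viral nucleocapsids, had no counts in any ILC1/3P or ILCP library and 10.4, 6.81 and 8.00 CPM in CLP. Mx2, annotated as a polymorphic pseudogene, likewise had no counts in ILC1/3P and ILCP and 4.65, 7.36 and 12 CPM in CLP. Against 3 counts over the libraries of a group, Mx1 was at least 29.9-fold lower in ILC1/3P and at least 62.1-fold lower in ILCP than in CLP (edgeR adjusted p = 0.0293 and 0.0271), and Mx2 at least 26.5-fold and 54.9-fold lower (edgeR adjusted p = 0.035 and 0.033). All 4 calls were lost on leaving out any 1 library of the groups compared, with adjusted p of 0.0731 to 0.0972 and 0.0546 to 0.114 for Mx1 and 0.0731 to 0.113 and 0.0673 to 0.143 for Mx2.

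Oas1a, a sensor of double-stranded RNA that makes the messenger 2-5A, had 0.164 and 0 CPM in ILC1/3P, 0, 2.49 and 2.25 CPM in ILCP and 23.8, 17.3 and 23.0 CPM in CLP. CLP libraries lay far above the others, and ILC1/3P held 1 count. Oas1a was lower in ILC1/3P than in CLP by a ratio of 225, 95% counting interval 40.2 to 8918 (edgeR adjusted p = 0.0103; 0.0535 without ILC1/3P replicate 2), and was not called in ILCP against CLP (log2 fold change -3.74, edgeR adjusted p = 0.0823). It shares 57.6% of its 50-base words with other Oas1 genes, so its counts may be split among them. Oas2 had no counts in ILC1/3P, 0, 4.15 and 0 CPM in ILCP and 4.76, 16.7 and 17.0 CPM in CLP, at least 40.6-fold lower in ILC1/3P than in CLP but not called (edgeR adjusted p = 0.0508). Oasl1 and Oasl2, relatives of Oas1a, were not called, and Oas3 had 3, 5 and 1 counts in ILC1/3P, ILCP and CLP.

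Ifit1, which binds viral RNA caps, had 10.0 and 0.945 CPM in ILC1/3P, 2.28, 0 and 9.57 CPM in ILCP and 26.9, 32.0 and 11.7 CPM in CLP. Its CLP libraries lay above the others, without a call (edgeR adjusted p = 0.328 in ILC1/3P and 0.297 in ILCP). Ifit2, a partner of Ifit1, averaged 9.94, 10.4 and 10.9 CPM in ILC1/3P, ILCP and CLP with overlapping libraries. Ifit3, which shares 51.2% of its words with Ifit3b, had 3, 3 and 76 counts in the same groups, nearly all from CLP replicate 1, and was not tested. Ifi27l2a, a small mitochondrial protein gene, had 0 and 1.18 CPM in ILC1/3P, 0, 2.49 and 4.08 CPM in ILCP and 27.2, 56.8 and 72.9 CPM in CLP. Its log2 fold change against CLP was -6.57 ± 1.56 in ILC1/3P (edgeR adjusted p = 0.0101), kept under every alternative, and -4.56 ± 1.12 in ILCP (edgeR adjusted p = 0.0297), lost without any CLP library or ILCP replicate 2 or 3 (adjusted p 0.0549 to 0.143). Ifi44 had no counts in ILC1/3P or ILCP and 0.567, 11.8 and 12.9 CPM in CLP, at least 25.5-fold and 52.9-fold lower than in CLP but not called (edgeR adjusted p = 0.0549 and 0.0549).

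**Figure D3:**
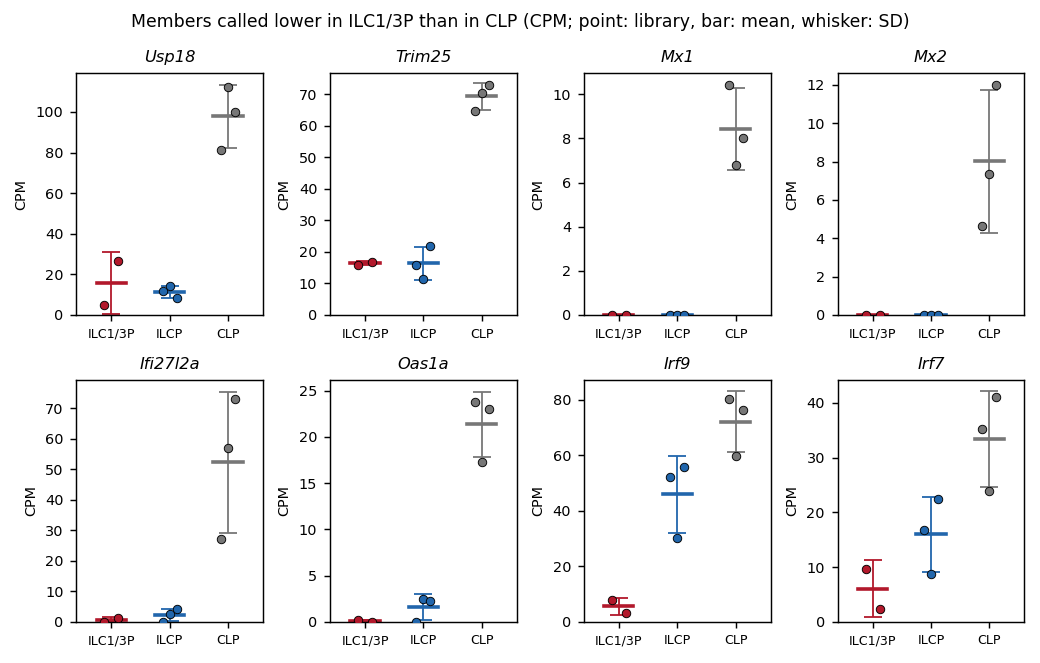
CPM (y axis) of the 8 genes called lower in ILC1/3P than in CLP, by population (x axis); points are libraries, bars means and whiskers SD (n = 2 ILC1/3P, 3 ILCP and 3 CLP). CLP points lie above all ILC1/3P points in every panel, and in the Irf9 panel every ILCP point lies well above the ILC1/3P points.

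Summed levels of the markers of several other cell types were highest in CLP together with these genes. Summed CPM of 9 plasmacytoid dendritic cell markers was 48.0 and 63.5 in ILC1/3P, 127 to 220.5 in ILCP and 638 to 763 in CLP, with the defining marker Siglech at 0 in every ILC1/3P and ILCP library. Klk1 was at 0 there too, and also in CLP replicate 1. Pdzd4 went the other way in part, at 0 in CLP replicates 2 and 3 and with counts in ILCP replicate 2. Sums of 8 B lineage markers were 129 and 169.9 CPM in ILC1/3P, 155 to 191 CPM in ILCP and 2646 to 3413 CPM in CLP, of 7 conventional dendritic markers 32.1 and 60.7 CPM in ILC1/3P, 27.3 to 29.4 CPM in ILCP and 418 to 587 CPM in CLP, and of 12 monocyte and macrophage markers 91.7 and 104 CPM in ILC1/3P, 15.2 to 36.4 CPM in ILCP and 217 to 302 CPM in CLP. Tested markers called lower in ILC1/3P against CLP were 5 of 7 plasmacytoid, 7 of 8 B lineage and 2 of 9 monocyte and macrophage. In ILCP against CLP they were 3 of 7, 7 of 8 and 2 of 9 in the same order. Over all genes, 11.7% were called lower in ILC1/3P against CLP and 2.87% in ILCP against CLP. Adgre1, C1qa and Marco, of the monocyte and macrophage markers, had no counts in any CLP library. The conventional dendritic sum in CLP was mostly Flt3, on which CLP were gated. Of 6 tested markers in ILC1/3P against CLP, 1 was called higher and 1 lower, with a median log2 fold change of 1.62. In ILCP against CLP, 1 of them was called higher and 3 lower, with a median of -2.57. The part of these cell types in the higher levels of Usp18, Trim25, Mx1, Mx2, Ifi27l2a, Oas1a, Irf7 and Irf9 in CLP was not tested. Neutrophil markers, 7 in all, summed to 4.96 and 12.7 CPM in ILC1/3P, 10.2 to 15.3 CPM in ILCP and 443 to 711 CPM in CLP. That sum in CLP was mostly Mpo; of 4 tested markers, 1 was called higher and 1 lower in ILC1/3P against CLP, and 1 lower in ILCP against CLP, where the median log2 fold change was 1.80. The 8 mast cell and megakaryocyte markers summed to 185 and 241 CPM in ILC1/3P, 485 to 627 CPM in ILCP and 2.96 to 6.07 CPM in CLP, and nearly all of it in ILC1/3P and ILCP was Cpa3.

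The IFITM genes, small membrane proteins that block fusion of viruses in endosomes, were higher in ILC1/3P than in both other populations. The 3 genes lie within chr7:140954839-141010770 (mm10). Ifitm1 had 2745 and 3737 CPM in ILC1/3P, 186, 215 and 140.4 CPM in ILCP and 41.1, 80.4 and 71.2 CPM in CLP. ILC1/3P libraries lay more than 10-fold above all ILCP libraries, which lay above all CLP libraries. Ifitm1 was higher in ILC1/3P by 5.66 ± 0.35 over CLP (edgeR adjusted p = 2.08e-06) and 4.16 ± 0.33 over ILCP (edgeR adjusted p = 6.01e-05), and in ILCP by 1.49 ± 0.29 over CLP (edgeR adjusted p = 0.00764) on the log2 scale, all kept under every alternative.

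Ifitm2 had 1620 and 2552 CPM in ILC1/3P, 295, 708 and 325 CPM in ILCP and 335, 481 and 562 CPM in CLP. ILCP and CLP overlapped and ILC1/3P lay above both, with log2 fold changes of 2.18 ± 0.39 against CLP (edgeR adjusted p = 0.00196) and 2.24 ± 0.39 against ILCP (edgeR adjusted p = 0.00318). Ifitm2 shares 48.5% of its 50-base words with other annotated genes, mainly the overlapping Gm45717. Ifitm3 had 380.1 and 450.3 CPM in ILC1/3P, 42.1, 52.1 and 18.2 CPM in ILCP and 90.9, 142 and 159 CPM in CLP, lowest in ILCP and highest in ILC1/3P without overlap. Its log2 fold change was 3.47 ± 0.41 in ILC1/3P against ILCP (edgeR adjusted p = 0.000462), 1.67 ± 0.39 in ILC1/3P against CLP (edgeR adjusted p = 0.00954; 0.0504 without ILC1/3P replicate 2 and 0.0729 on scaling by library size alone) and -1.80 ± 0.37 in ILCP against CLP (edgeR adjusted p = 0.0109; 0.0566 without CLP replicate 3). Per length, Ifitm2 led with 2336 ± 555 FPKM in ILC1/3P, followed by Ifitm1 with 1751 ± 238 FPKM and Ifitm3 with 433 ± 16.6 FPKM; in CLP Ifitm1 was last, at 55.0 ± 14.6 FPKM against 216 ± 46.2 FPKM for Ifitm3 and 823 ± 159 FPKM for Ifitm2.

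Rtp4, Bst2 and Xaf1 shared with Ifitm3 a minimum in ILCP. Rtp4, a receptor chaperone induced by interferon, had 308 and 408 CPM in ILC1/3P, 43.7, 39.1 and 31.0 CPM in ILCP and 118, 225 and 194 CPM in CLP. Bst2, or tetherin, which holds budding virus at the cell surface, had 54.1 and 130.2 CPM in ILC1/3P, 3.98, 5.11 and 6.76 CPM in ILCP and 44.8, 21.2 and 22.2 CPM in CLP. Xaf1, a promoter of apoptosis, had 133 and 220.1 CPM in ILC1/3P, 23.5, 31.5 and 23.9 CPM in ILCP and 47.4, 79.7 and 71.6 CPM in CLP. In all 3 genes every ILCP library lay below every CLP library and every CLP library below every ILC1/3P library.

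In ILCP against CLP the log2 fold change was -2.24 ± 0.29 for Rtp4 (edgeR adjusted p = 0.000548), -2.47 ± 0.49 for Bst2 (edgeR adjusted p = 0.00909) and -1.33 ± 0.32 for Xaf1 (edgeR adjusted p = 0.0268; 0.0957 to 0.114 without CLP replicate 2 or 3 or ILCP replicate 1 or 3). In ILC1/3P against ILCP it was 3.24 ± 0.32 for Rtp4 (edgeR adjusted p = 0.000204), 4.12 ± 0.54 for Bst2 (edgeR adjusted p = 0.000843) and 2.74 ± 0.35 for Xaf1 (edgeR adjusted p = 0.000752). In ILC1/3P against CLP it was 1.00 ± 0.31, 1.64 ± 0.50 and 1.41 ± 0.34 for the same genes (edgeR adjusted p = 0.0353, 0.0346 and 0.0114). Those last calls depended on scaling and on single libraries. On scaling by library size alone the edgeR adjusted p was 0.411 for Rtp4, 0.23 for Bst2 and 0.112 for Xaf1, and without ILC1/3P replicate 2 it was 0.198, 0.393 and 0.127. Rtp4 was also lost without CLP replicate 1 (0.0897) or 3 (0.0713), and Bst2 without CLP replicate 2 or 3 (0.108 each). Rtp4 shares 11.6% of its words with Gm45338, which overlaps it.

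**Figure D4:**
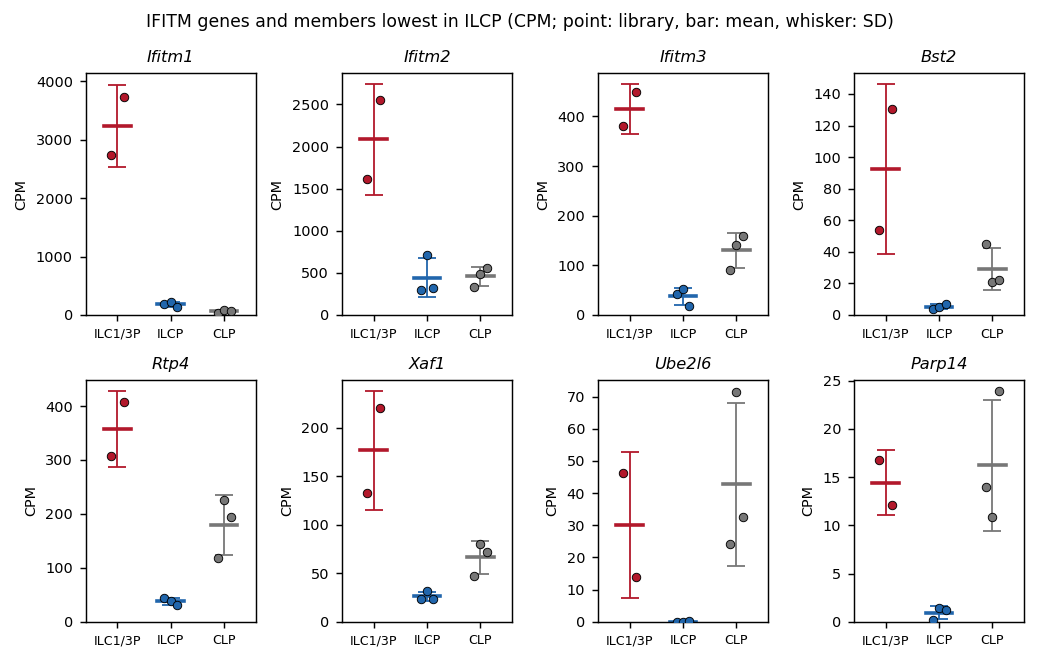
CPM (y axis) of the 3 IFITM genes and of 5 genes lowest in ILCP, by population (x axis); points are libraries, bars means and whiskers SD (n = 2 ILC1/3P, 3 ILCP and 3 CLP). Ifitm1 is higher in ILCP than in CLP and highest in ILC1/3P, whereas Ifitm3, Bst2, Rtp4, Xaf1, Ube2l6 and Parp14 have their lowest points in ILCP.

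Samhd1 and Ifi35 were the other effectors with calls. Samhd1, which breaks down the nucleotides that viruses need, had 141 and 112 CPM in ILC1/3P, 214, 179 and 155 CPM in ILCP and 65.5, 60.2 and 32.5 CPM in CLP. ILCP was highest and CLP lowest, without overlap. Samhd1 was higher than in CLP by 1.79 ± 0.30 in ILCP (edgeR adjusted p = 0.0033), kept under every alternative, and by 1.26 ± 0.33 in ILC1/3P (edgeR adjusted p = 0.0156; 0.0778 without ILC1/3P replicate 1 and 0.248 on scaling by library size alone).

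Ifi35, an interferon-induced partner of Nmi, had 328 and 410.3 CPM in ILC1/3P, 117, 97.6 and 124 CPM in ILCP and 106, 162 and 151 CPM in CLP. ILCP and CLP overlapped, and ILC1/3P lay above both by 1.70 ± 0.27 against ILCP (edgeR adjusted p = 0.00189) and 1.40 ± 0.27 against CLP (edgeR adjusted p = 0.00286) on the log2 scale, kept under every alternative. Nmi itself, not among the 47 genes, had 362 and 661 CPM in ILC1/3P, 130.1, 125 and 149 CPM in ILCP and 78.1, 122 and 116 CPM in CLP and was higher in ILC1/3P against CLP by 2.28 ± 0.31 (edgeR adjusted p = 0.000305). The radical enzyme Rsad2, its neighbour Cmpk2, the exonuclease Isg20 and the secreted glycoprotein Lgals3bp were not called in any comparison. Their mean levels ran from 0.401 to 37.3 CPM. Isg20 had 20.9 and 31.7 CPM in ILC1/3P, 7.40, 8.84 and 10.7 CPM in ILCP and 5.55, 5.70 and 15.9 CPM in CLP, with both ILC1/3P libraries above all others (edgeR adjusted p = 0.128 against CLP and 0.155 against ILCP).

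Of the GTPases, Igtp, Gbp2, Gbp4 and Gbp7 were called higher in ILC1/3P than in CLP, and Igtp, Gbp2 and Gbp4 also in ILCP. All 8 rows had a positive log2 fold change in ILC1/3P against CLP. In ILCP against CLP, 5 were positive and 3 negative. The median authors' FPKM over the rows was 11.9 in ILC1/3P, 4.52 in ILCP and 1.40 in CLP, against 1.67, 3.21 and 3.39 over all tested genes. Igtp, an immunity-related GTPase at chr11:58199556-58207591 (mm10), had 666 and 355 CPM in ILC1/3P, 156, 119.8 and 139 CPM in ILCP and 50.2, 52.1 and 39.4 CPM in CLP. The groups did not overlap. Per length Igtp was the most abundant GTPase in ILC1/3P and ILCP, but below Irgm1 in CLP (24.8 ± 2.89 FPKM), at 72.1 ± 36.3 FPKM in ILC1/3P, 30.0 ± 5.45 FPKM in ILCP and 10.5 ± 1.92 FPKM in CLP. Igtp was higher in ILC1/3P by 3.43 ± 0.31 over CLP (edgeR adjusted p = 2.71e-05) and 1.88 ± 0.30 over ILCP (edgeR adjusted p = 0.00197), and in ILCP by 1.55 ± 0.28 over CLP (edgeR adjusted p = 0.00467), all kept under every alternative. Its exons overlap those of Irgm2 on the same strand, and it shares 11.8% of its 50-base words with that gene.

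Gbp2, a guanylate-binding protein at chr3:142620602-142638008, had 84.4 and 108 CPM in ILC1/3P, 40.1, 20.2 and 20.3 CPM in ILCP and 8.61, 2.58 and 0.741 CPM in CLP. Gbp4, at chr5:105115767-105139586, had 81.4 and 51.1 CPM in ILC1/3P, 37.0, 23.9 and 21.5 CPM in ILCP and 9.52, 2.76 and 8.75 CPM in CLP. In both genes ILC1/3P libraries were highest and CLP libraries lowest, without overlap. Gbp2 was higher than in CLP by 4.56 ± 0.77 in ILC1/3P (edgeR adjusted p = 0.00139) and 2.72 ± 0.69 in ILCP (edgeR adjusted p = 0.036), and Gbp4 by 3.23 ± 0.57 in ILC1/3P (edgeR adjusted p = 0.00182) and 1.96 ± 0.52 in ILCP (edgeR adjusted p = 0.0436). The ILC1/3P calls were kept under every alternative. The ILCP calls were lost for Gbp2 without any 1 of CLP replicates 2 and 3 and the ILCP libraries (adjusted p 0.065 to 0.15), for Gbp4 without any 1 CLP or ILCP library (0.0691 to 0.141), and for both on scaling by library size alone (0.0738 and 0.0798). Gbp4 overlaps Gbp8 and Gbp9 on the same strand.

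Gbp7, at chr3:142530342-142550149, had 212 and 123 CPM in ILC1/3P, 36.3, 35.4 and 27.6 CPM in ILCP and 57.4, 53.4 and 54.1 CPM in CLP. Exons of Gbp7 overlap those of Gm43802 on the same strand. Gbp7 shares 12.7% of its 50-base words with other annotated genes, most with Gm43802. It was lowest in ILCP and highest in ILC1/3P without overlap, by 2.34 ± 0.32 over ILCP (edgeR adjusted p = 0.00106) and 1.61 ± 0.32 over CLP (edgeR adjusted p = 0.00366; 0.0656 on scaling by library size alone), and it was not called in ILCP against CLP (edgeR adjusted p = 0.18). Irgm1, which regulates the other immunity-related GTPases, at chr11:48861968-48871683, had 325 and 144 CPM in ILC1/3P, 73.2, 82.9 and 108 CPM in ILCP and 151, 146 and 184 CPM in CLP. ILC1/3P replicate 2 lay below all CLP libraries and replicate 1 far above them. Irgm1 was called in ILC1/3P against ILCP alone (log2 fold change 1.41 ± 0.34, edgeR adjusted p = 0.0153; 0.0643 without ILCP replicate 1 and 0.198 without ILC1/3P replicate 1 and 0.139 on scaling by library size alone), and not against CLP (edgeR adjusted p = 0.265).

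Gbp3, at chr3:142560026-142573209, had 8.72 and 25.5 CPM in ILC1/3P, 2.84, 0 and 0 CPM in ILCP and 13.6, 2.02 and 1.48 CPM in CLP, uneven within ILC1/3P and CLP and not called in any comparison (edgeR adjusted p = 0.512, 0.419 and 0.129 for ILC1/3P against CLP, ILCP against CLP and ILC1/3P against ILCP). The Gbp6 rows could not be separated: one (ENSMUSG00000079362, named Gm43302 in GENCODE M21) shares all its words with Gbp6 and Gbp10. That row had 16.1 and 3.55 CPM in ILC1/3P, 10.8, 6.08 and 3.38 CPM in ILCP and 2.04, 0 and 0.445 CPM in CLP, and the other (ENSMUSG00000104713) 8.06 and 3.55 CPM, 10.1, 5.25 and 2.11 CPM and 3.51, 2.21 and 2.96 CPM in the same order. Neither was called, with edgeR adjusted p of 0.0966 and 0.557 in ILC1/3P against CLP.

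**Figure D5:**
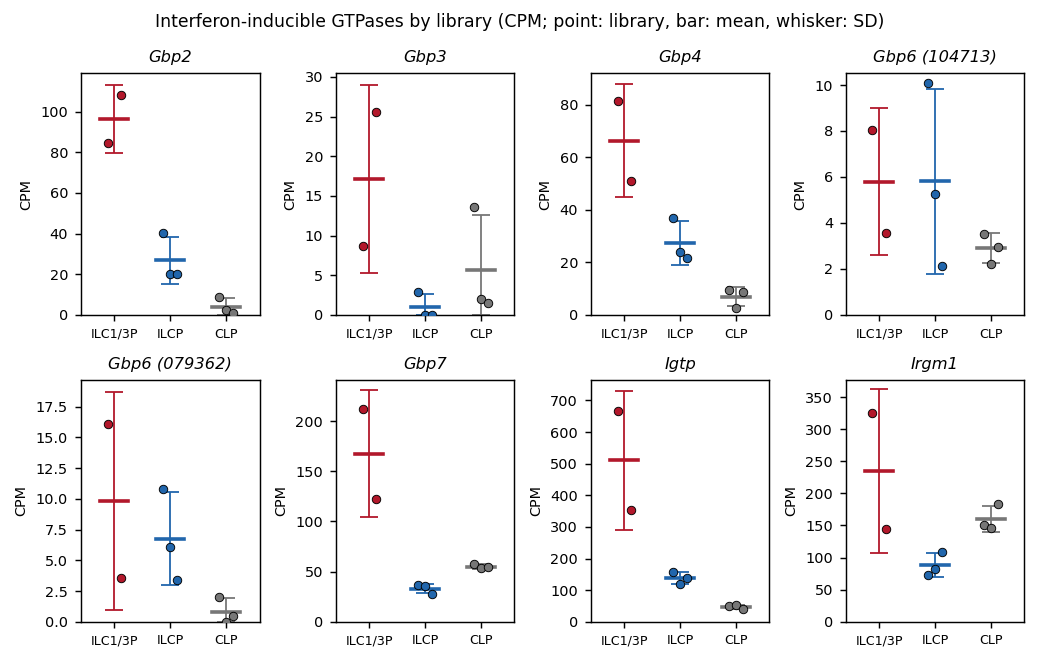
CPM (y axis) of the 8 GTPase rows by population (x axis); points are libraries, bars means and whiskers SD (n = 2 ILC1/3P, 3 ILCP and 3 CLP). Gbp2, Gbp4 and Igtp are highest in ILC1/3P and lowest in CLP, and Gbp7 and Irgm1 are lowest in ILCP.

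GTPases outside the 47 genes were looked up by the same test. Of 9 tested, 5 were called higher in ILC1/3P against CLP (Tgtp1, Tgtp2, Ifi47, Gbp8 and Gbp10), beside 11.8% of all genes. In ILC1/3P against ILCP, 5 were called higher (Tgtp1, Tgtp2, Ifi47, Gbp10 and Irgm2), beside 8.06% of all genes. Exons of Gbp10 overlap the Gbp6 row named Gm43302, those of Gbp8 overlap Gbp4 and those of Irgm2 overlap Igtp. Their counts may therefore not be separate from those of the 47 genes. For GTPases outside the 47, such as Tgtp1 and Tgtp2, shared words were not looked up. Against CLP, Gbp8, Gbp10 and Tgtp2 lost their calls without CLP replicate 3 (edgeR adjusted p = 0.107, 0.0533 and 0.0764). Gbp10 and Tgtp2 lost theirs without CLP replicate 1 (0.0606 and 0.0788). Gbp8 and Gbp10 also lost theirs without ILC1/3P replicate 2 (log2 fold changes 2.94 and 7.78), and Tgtp2 without ILC1/3P replicate 1 (1.17). Against ILCP, Gbp10 and Irgm2 lost theirs without ILCP replicate 3 (edgeR adjusted p = 0.0689 and 0.101). Both were also lost without ILC1/3P replicate 2 (log2 fold changes 7.78 and 4.52), and Irgm2 without ILC1/3P replicate 1 (4.01). Tgtp1, a T-cell-specific GTPase, had 1501 and 656 CPM in ILC1/3P, 51.1, 34.8 and 40.1 CPM in ILCP and 4.87, 16.2 and 0 CPM in CLP, and was higher in ILC1/3P by 7.30 ± 1.02 over CLP (edgeR adjusted p = 0.000461) and 4.68 ± 0.91 over ILCP (edgeR adjusted p = 0.00576; 0.0748 with no filter on low counts). Ifi47 had 567 and 296 CPM in ILC1/3P, 30.4, 59.7 and 63.4 CPM in ILCP and 57.7, 133 and 103 CPM in CLP, higher in ILC1/3P by 3.08 ± 0.43 over ILCP (edgeR adjusted p = 0.00113) and 2.14 ± 0.42 over CLP (edgeR adjusted p = 0.00344). In both genes ILC1/3P replicate 1 was the higher of the pair, as it was for Igtp, Irgm1, Gbp4, Gbp7 and both Gbp6 rows; the pair stood the other way in Gbp2, Gbp3 and the IFITM genes.

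Of 39 tested interferon-stimulated genes outside the 47, 6 were called higher and 5 lower in ILC1/3P against CLP. In ILCP against CLP 4 were called higher and 5 lower, and in ILC1/3P against ILCP 7 were called higher. Over all genes, 11.8% were called higher and 11.7% lower in ILC1/3P against CLP. These shares were 3.91% and 2.87% in ILCP against CLP, and 8.06% and 8.25% in ILC1/3P against ILCP. Single libraries carried part of the calls among the 39 genes. Of the 5 lower in ILC1/3P against CLP, 3 were lost without CLP replicate 2 or ILC1/3P replicate 1 and 2 without CLP replicate 3 or ILC1/3P replicate 2. Of the 5 lower in ILCP against CLP, 2 were lost without CLP replicate 2 or 3 or ILCP replicate 1 or 2. Of the 7 higher in ILC1/3P against ILCP, 4 were lost without ILC1/3P replicate 2 or ILCP replicate 3 and 3 without ILCP replicate 1. Cxcl10, a chemokine of the interferon gamma response, had 119 and 405 CPM in ILC1/3P, 36.1, 42.3 and 81.9 CPM in ILCP and 4.99, 1.66 and 0.296 CPM in CLP, highest in ILC1/3P. It was higher than in CLP by 6.75 ± 0.84 in ILC1/3P (edgeR adjusted p = 0.000207) and 4.46 ± 0.76 in ILCP (edgeR adjusted p = 0.00337; 0.0646 with no filter on low counts). Lgals9, a galectin, had 324 and 218 CPM in ILC1/3P, 216, 218 and 336 CPM in ILCP and 1166, 1824 and 2001 CPM in CLP, with log2 fold changes against CLP of -2.62 ± 0.35 in ILC1/3P (edgeR adjusted p = 0.000302) and -2.70 ± 0.30 in ILCP (edgeR adjusted p = 0.000155). Ifi203, of the DNA-binding Ifi200 family, was lowest in ILCP like Rtp4 and Bst2, at 86.0 and 90.1 CPM in ILC1/3P, 26.5, 28.7 and 25.2 CPM in ILCP and 180.1, 185 and 166 CPM in CLP.

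Factors and brakes of the pathway also differed. Irf8, a factor of myeloid, dendritic and B cells, had 16.0 and 27.4 CPM in ILC1/3P, 2.28, 0.276 and 0.141 CPM in ILCP and 295, 98.1 and 143 CPM in CLP, with log2 fold changes against CLP of -3.05 ± 0.74 in ILC1/3P (edgeR adjusted p = 0.0116; 0.0628 to 0.0648 without CLP replicate 1 or ILC1/3P replicate 1) and -7.62 ± 0.82 in ILCP (edgeR adjusted p = 0.000131). Socs1, which inhibits Jak kinases, had 32.9 and 53.4 CPM in ILC1/3P, 52.2, 31.9 and 59.4 CPM in ILCP and 9.18, 6.99 and 15.4 CPM in CLP, with CLP lowest. It was higher than in CLP by 2.03 ± 0.49 in ILC1/3P (edgeR adjusted p = 0.0105; 0.075 without ILC1/3P replicate 2 and 0.0648 on scaling by library size alone) and 2.18 ± 0.46 in ILCP (edgeR adjusted p = 0.0123; 0.0561 to 0.0624 without CLP replicate 1 or 2 or ILCP replicate 3). Mavs, the adaptor downstream of the RNA sensors, had 0 and 2.13 CPM in ILC1/3P, 25.7, 7.74 and 20.4 CPM in ILCP and 25.6, 24.5 and 31.4 CPM in CLP, with a log2 fold change in ILC1/3P against CLP of -4.75 ± 1.16 (edgeR adjusted p = 0.0117).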

How the data were processed

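Sorted cells were lysed, reverse transcribed with the SMARTer Ultra Low chemistry, amplified by PCR and sequenced on a NovaSeq instrument, per the labels' protocols. For each gene the authors deposited a raw count and an FPKM value (counts over gene length and library total), per the file headers. mm10 is the build named, per the submitters' processing notes. How reads were aligned and counted, with which annotation and whether by strand, is not given in the sources used here, and genes that overlap others (19 of 48 rows) are therefore uncertain. Without molecular identifiers in the protocol, counting error is all that intervals and floors cover. Unmapped value columns numbered 0.

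Counts were tested with edgeR 4.0.16 (R 4.3.3): filterByExpr, TMM, robust quasi-likelihood fit over all 8 libraries, two-sided, Benjamini-Hochberg adjustment over 13436 genes, threshold 0.05. Standard errors came from the F statistic. Values are mean ± SD or per library, in replicate order. The common coefficient of variation between libraries of a group was 0.679 (5 residual degrees of freedom), which limits precision for low genes. DESeq2 1.42.0 and limma 3.58.1 (on log2(FPKM + 1)) were alternatives. Scripts were tested on simulated counts. Overlaps and shared 50-base words came from GENCODE M21. Per-library values were given for called genes (at most 8 per comparison and direction), all GTPases, the gene with the highest FPKM of each role and 4 transcription factors. Genes and lists were chosen with earlier results of these data known; Ifi209 and Ifi213 were not matched. A further pathway gene is not reported here.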

Additional observations from a re-analysis of the deposited data

How the results depend on the processing

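Of 54 calls of single genes among the 47, 30 held under each of 16 alternatives that gave a value and 24 were lost under at least 1, with 0 reversed. In ILCP against CLP, 8 of 16 calls held throughout, in ILC1/3P against CLP 11 of 22 and in ILC1/3P against ILCP 11 of 16. On scaling by library size alone, the count higher in ILCP against CLP was 3 (main 5) and in ILC1/3P against CLP 7 (main 14); this second count was also 7 with limma on log2(FPKM + 1), which carries the same scaling. Fitting only the libraries of the compared groups gave 3 higher in ILCP against CLP. The DESeq2 Wald test gave 2 genes lower in ILC1/3P against ILCP (main 1). Leaving out 1 library at a time gave 3 to 5 higher and 5 to 13 lower in ILCP against CLP, 10 to 14 higher and 4 to 10 lower in ILC1/3P against CLP, and 12 to 16 higher and 1 to 2 lower in ILC1/3P against ILCP. Of 63 calls of other pathway genes, 31 held throughout and 0 were reversed. The cause was not tested.

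Deviations of libraries from their group means correlated at -0.033 to 0.087 in the 7 same-numbered pairs and at -0.093 to 0.033 in the others. Deviations within a group of 2 or 3 libraries cancel, so these values cannot decide whether the replicate numbers pair the libraries. With a replicate block, 5 genes were higher and 9 lower in ILCP against CLP, 11 and 6 in ILC1/3P against CLP, and 14 and 1 in ILC1/3P against ILCP. Oas3 and Ifit3 had too few counts to be tested at this depth.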
